A study of Homo sapiens with 48 samples.

Results

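The 10 genes described here encode the heterogeneous nuclear ribonucleoproteins (hnRNPs) C, F, H1, H2, H3, K, L, M, R and U. They were chosen by gene symbol (HNRNPC, HNRNPF, HNRNPH1, HNRNPH2, HNRNPH3, HNRNPK, HNRNPL, HNRNPM, HNRNPR and HNRNPU), and all 10 were found among the 12256 genes listed in either of 2 deposited tables and the 10836 listed in both. The set was selected on lower ribosome-protected fragments (RPFs) of hnRNP genes after knockdown in these same libraries, so the responses to knockdown and the changes with DOX below are descriptions. Genes past the threshold of the limma fit are counted for them beside the share of all genes past it, without p-values, and nothing is read from those counts. Adjusted p-values are given only for differences between lines averaged over both treatments. These come from the same libraries, and are uncorrelated with the responses only as far as all libraries vary equally.

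hnRNPs coat nascent transcripts in the nucleus and take part in splicing, export, stability and translation of the bound mRNAs, and many move between nucleus and cytoplasm. HNRNPC forms tetramers that bind uridine tracts, the F and H proteins bind guanine tracts through degenerate RNA recognition motifs, HNRNPK binds cytosine-rich sequence through KH domains, and HNRNPL binds CA repeats. HNRNPM binds GU-rich sequence and acts in alternative splicing, HNRNPR is a close relative of SYNCRIP, and HNRNPU (scaffold attachment factor A) binds both RNA and chromatin.

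The cells were SW480, an established colorectal adenocarcinoma line that carries a mutation in the tumour suppressor APC. They had been transduced with a DOX (doxycycline)-inducible shRNA that was non-targeting (shCTRL) or directed against EIF2B1 (shEIF2B1) or EIF2B4 (shEIF2B4), which encode the α and δ subunits of eIF2B, the factor that reloads the initiation factor eIF2 with GTP. Over 5 days, each line was kept in DMSO (-DOX) or in DOX at 1 µg/ml (+DOX). Per the study's methods, the 4 replicates came from separate weeks, which gives 6 groups, 24 lysates and 48 libraries. The labels give a replicate number only, and libraries of the same number are taken here to share a week. With a single transduced line per shRNA, the shRNA and the line cannot be told apart. RPFs and total cytoplasmic RNA came from the same lysate, the values are regularized log2 read counts, and log2 translational efficiency (log2 TE) is log2 RPF minus log2 total RNA. In this bulk material, fewer cells with a transcript and less of it per cell cannot be told apart.

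Across the whole series, EIF2B1 RPFs were 8.35 ± 0.08 (SD, n = 4) in shEIF2B1 -DOX cells and 7.64 ± 0.23 (SD, n = 4) in +DOX cells, against 8.80 ± 0.09 and 8.61 ± 0.20 in shCTRL cells. EIF2B4 RPFs were 7.77 ± 0.21 and 7.13 ± 0.24 in the shEIF2B4 line, against 8.19 ± 0.32 and 8.02 ± 0.22. In both lines the target was therefore already lower than in shCTRL without DOX. Of 10 epithelial markers, 7 were listed in each table (CDX1, VIL1 and LGR5 were not), and of 6 markers of other cell types DES alone was listed, at a mean log2 RPF of 4.85 against a table median of 6.99. The RPF library of replicate 1 of shEIF2B4 -DOX stood apart: its root mean square distance from its group's mean over all genes was 0.518, against 0.139 to 0.378 in the other libraries. All 10 hnRNP genes had their lowest value of that group in it, so results that rest on it are also given without it. The RPF library of replicate 1 of shCTRL -DOX, at a distance of 0.261, likewise held the lowest value of its group for all 10. It was not left out on its own, and it enters the week 1 responses to both shRNAs.

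The F and H genes show how closely the members can resemble each other in protein and differ in coding sequence. Over their aligned residues HNRNPH1 and HNRNPH2 were 96.2% identical in protein and 87.6% in coding bases, but 69.0% at the third base of the codon, and HNRNPF and HNRNPH1 were 77.8%, 77.6% and 58.5% identical. The stretch of 40 codons in which these 4 proteins are most alike is shown because the same residues are written there with different bases at the third position. Capitals mark G or C at the third position of a codon, and each line is written from 5′ to 3′ on the coding strand:
HNRNPF, codons 300 to 339: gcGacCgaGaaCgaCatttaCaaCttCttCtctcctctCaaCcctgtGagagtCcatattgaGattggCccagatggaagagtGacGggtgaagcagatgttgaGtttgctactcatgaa
HNRNPH1, codons 300 to 339: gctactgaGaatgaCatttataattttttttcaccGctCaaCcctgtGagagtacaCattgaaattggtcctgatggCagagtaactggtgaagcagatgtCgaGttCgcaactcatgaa
HNRNPH2, codons 300 to 339: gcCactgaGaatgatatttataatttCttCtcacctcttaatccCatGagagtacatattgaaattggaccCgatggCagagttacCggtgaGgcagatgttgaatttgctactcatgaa
HNRNPH3, codons 206 to 245: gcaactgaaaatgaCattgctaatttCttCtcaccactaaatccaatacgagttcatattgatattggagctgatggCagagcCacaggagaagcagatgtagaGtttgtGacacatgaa

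These stretches lie in coding exons on GRCh38, at chr10:43386868-43386987 on the minus strand for HNRNPF and at chrX:101412886-101413005 on the plus strand for HNRNPH2. The HNRNPH1 stretch (chr5:179617554-179617822, minus strand) and the HNRNPH3 stretch (chr10:68339532-68341269, plus strand) each span 2 coding exons. HNRNPF and HNRNPH1 encode the same 40 residues there, yet share the base at the third position in 20 of 40 codons. The third position held G or C in 18 codons of HNRNPF, 11 of HNRNPH1, 10 of HNRNPH2 and 7 of HNRNPH3.

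Over the whole coding sequence HNRNPF was again the highest and HNRNPH3 the lowest of the 4. The third position was G or C (GC3) in 64.1% of codons in HNRNPF, 42.3% in HNRNPH1, 43.9% in HNRNPH2 and 31.2% in HNRNPH3. Among the other members GC3 was 67.7% in HNRNPL, 59.0% in HNRNPM, 48.0% in HNRNPC, 39.3% in HNRNPR, 37.4% in HNRNPK and 36.2% in HNRNPU. The median was 43.1% over the 10 members and 59.7% over 10847 genes of the RPF table and purines (G or A) made up a median of 58.1% of the members' coding bases against 52.6%. The coding sequences ran from 918 bases in HNRNPC to 2190 in HNRNPM, and HNRNPF and HNRNPH2 each carry theirs in a single exon.

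The members lie on 6 autosomes and the X chromosome (GENCODE 29, GRCh38), and 3 chromosomes hold a pair of them. HNRNPR (chr1:23303771-23344336) and HNRNPU (chr1:244840638-244864560) are on chromosome 1, both on the minus strand. HNRNPF (chr10:43385617-43409166, minus) and HNRNPH3 (chr10:68331174-68343191, plus) are on chromosome 10, and HNRNPL (chr19:38836388-38852347, minus) and HNRNPM (chr19:8444767-8489114, plus) on chromosome 19. HNRNPC lies at chr14:21209136-21269494, HNRNPH1 at chr5:179614178-179634784 and HNRNPK at chr9:83968083-83980616, all on the minus strand, and HNRNPH2 at chrX:101408295-101414133 on the plus strand.

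Reads of 2 members can be confused with near copies. Of all 30-base windows of the coding sequence, 13.95% of those in HNRNPC also occur in HNRNPCL1 or HNRNPCL2, copies that were listed in the RPF table (mean log2 RPF 6.30 and 8.61) but not in the total RNA table. In HNRNPH2, 13.2% of windows occur in another listed transcript, mostly in the read-through RPL36A-HNRNPH2. The share was 4.48% in HNRNPH1, 1.19% in HNRNPH3, 0.74% in HNRNPF and 0 in the other 5. The read-through was listed in the total RNA table (mean log2 12.60) and not in the RPF table. The overlap thus bears on HNRNPC in RPFs and on HNRNPH2 mainly in total RNA.

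In uninduced shCTRL cells, HNRNPC and HNRNPK were the most abundant members per length, and HNRNPH2 the least. Log2 RPF per kb of coding sequence was 11.40 ± 0.36 (SD, n = 4) for HNRNPC, 11.04 ± 0.37 for HNRNPK, 10.26 ± 0.71 for HNRNPH1, 9.99 ± 0.23 for HNRNPL and 9.72 ± 0.16 for HNRNPF. Below them were HNRNPU at 8.98 ± 0.64, HNRNPH3 at 8.63 ± 0.47, HNRNPM at 8.57 ± 0.34, HNRNPR at 8.43 ± 0.41 and HNRNPH2 at 7.47 ± 0.41. Each neighbouring pair in this order overlapped in its replicates except HNRNPR and HNRNPH2, and all 10 lay above the median of 6.61 over 10547 genes.

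**Figure D1:**
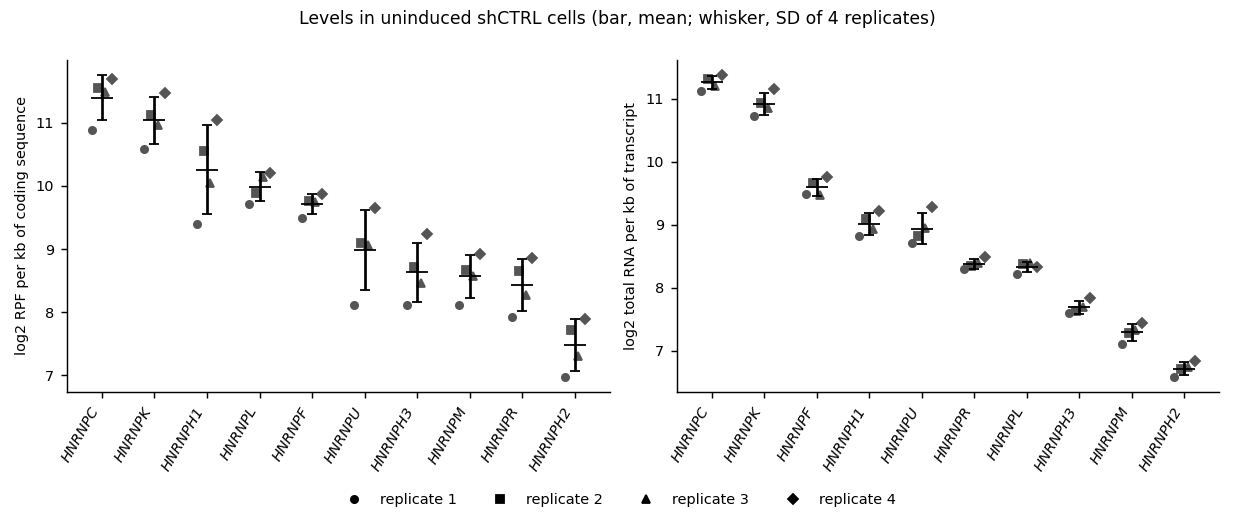
Level of each hnRNP gene per length in the 4 uninduced shCTRL libraries, as log2 RPF per kb of coding sequence (left) and log2 total RNA per kb of transcript (right), with the mean and SD. HNRNPC and HNRNPK lead both orders and HNRNPH2 is last in both, while replicates spread more widely for RPFs than for total RNA.

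By total RNA per kb of transcript the order began in the same way, with HNRNPC at 11.26 ± 0.11 (SD, n = 4) and HNRNPK at 10.92 ± 0.18 on the log2 scale, whose replicates overlapped. HNRNPF followed at 9.60 ± 0.14 and overlapped neither neighbour. HNRNPH1 (9.01 ± 0.17) and HNRNPU (8.94 ± 0.25) overlapped each other, as did HNRNPR (8.38 ± 0.08) and HNRNPL (8.33 ± 0.07). HNRNPH3 at 7.69 ± 0.11, HNRNPM at 7.29 ± 0.14 and HNRNPH2 at 6.71 ± 0.10 were each below all replicates of the member before them. Their difference, log2 TE per kb, was highest for HNRNPL at 1.66 ± 0.19, which stood above all replicates of HNRNPM at 1.28 ± 0.21 but not of the highest replicates of HNRNPH1 (1.25 ± 0.53). HNRNPU and HNRNPR were the lowest at 0.04 ± 0.43 and 0.05 ± 0.35, near the median of 0.23 over the 10547 genes.

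With shEIF2B1, RPFs of all 10 members were lower after induction in each of the 4 weeks, where 27.2% of all genes were. HNRNPU had the largest response relative to shCTRL. In shCTRL cells its log2 RPF values in replicates 1, 2, 3 and 4 were 8.97, 9.95, 9.92 and 10.50 without DOX and 9.72, 9.35, 9.30 and 10.41 with DOX. The shEIF2B1 line gave 9.87, 10.91, 10.07 and 11.09 without and 8.90, 9.39, 9.31 and 9.80 with DOX, and the shEIF2B4 line 8.34, 10.18, 10.30 and 10.28 and 8.41, 9.46, 9.21 and 10.00. All 4 induced shEIF2B1 libraries were below all 4 uninduced ones, while the shCTRL groups overlapped, and the uninduced shEIF2B1 mean was the highest of the 6 groups. In the shEIF2B1 line, RPFs were lower with DOX without overlap in 9 members and 7.78% of all genes. In shCTRL cells this held for 0 members and 1.94% of all genes. The response, taken as the change with DOX in shEIF2B1 cells minus that in shCTRL cells, was -1.72, -0.92, -0.14 and -1.19 in weeks 1 to 4. The limma estimate was -0.99 ± 0.24 (SE).

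**Figure D2:**
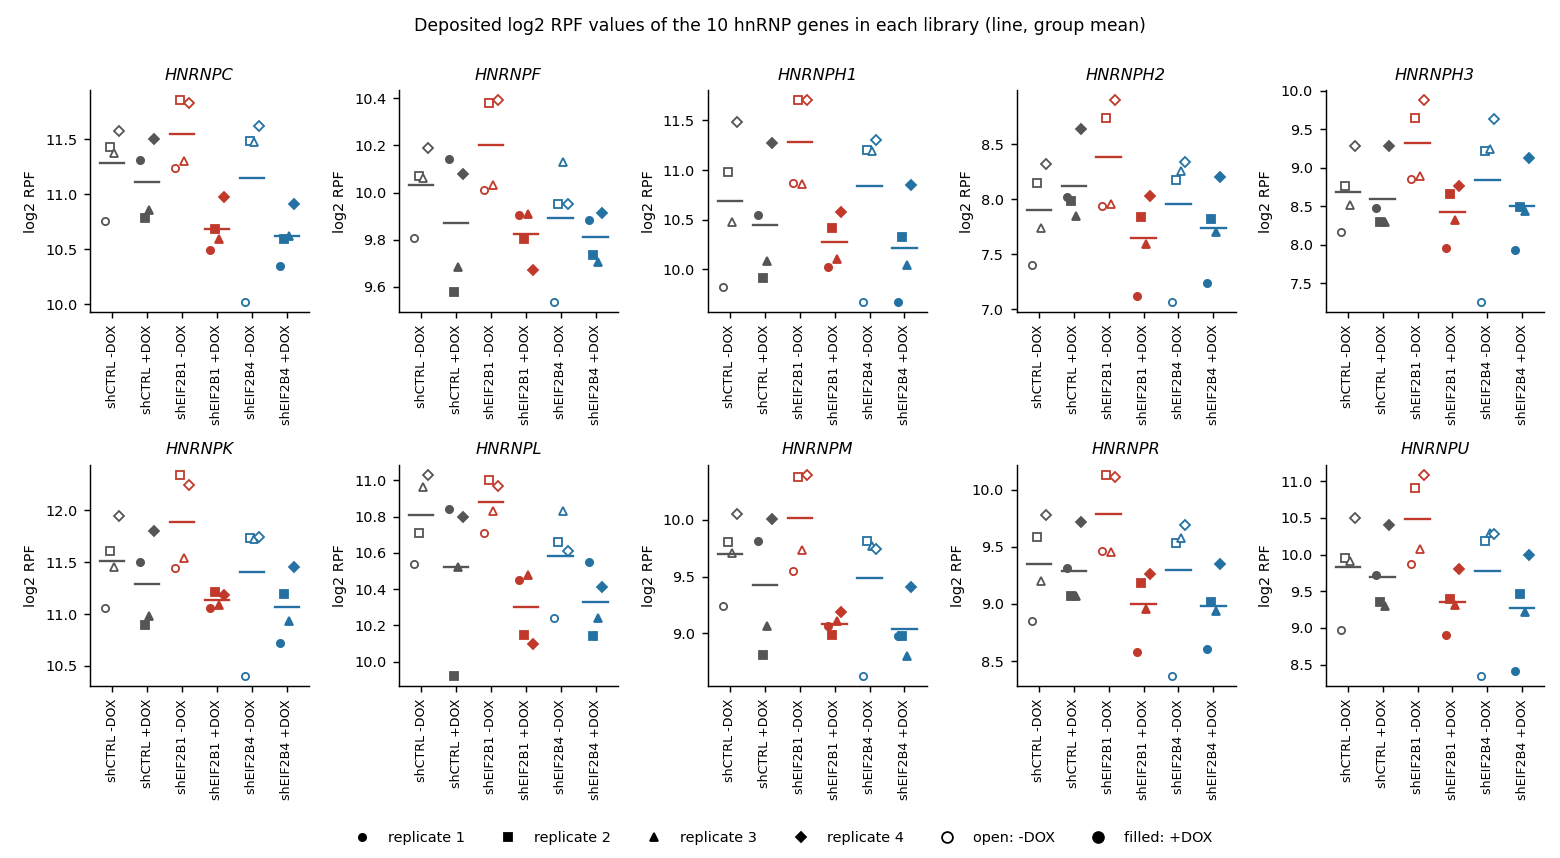
Deposited log2 RPF values of each hnRNP gene in all 24 RPF libraries, by line and DOX, with a bar at each group's mean. In every panel the uninduced shEIF2B1 group has the highest mean, and the open circle of replicate 1 is the lowest point of the uninduced shEIF2B4 group and of the uninduced shCTRL group.

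HNRNPH2, the X-linked H protein, had the next lowest response. Its log2 RPF values were 7.40, 8.15, 7.74 and 8.32 in shCTRL -DOX and 8.02, 7.99, 7.85 and 8.64 in shCTRL +DOX cells. They were 7.94, 8.74, 7.96 and 8.90 in shEIF2B1 -DOX cells, 7.12, 7.84, 7.59 and 8.03 in shEIF2B1 +DOX cells, 7.07, 8.18, 8.25 and 8.34 in shEIF2B4 -DOX cells and 7.24, 7.82, 7.70 and 8.20 in shEIF2B4 +DOX cells. Unlike the other 9 members, HNRNPH2 was higher in shCTRL cells on average with DOX than without it, and its shEIF2B1 groups overlapped, although the induced value was the lower in each of the 4 weeks. The response to shEIF2B1 was -1.44, -0.75, -0.48 and -1.18 by week, or -0.96 ± 0.17 (SE) from the fit.

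HNRNPH1, its autosomal paralogue, gave log2 RPFs of 9.83, 10.98, 10.48 and 11.48 in shCTRL -DOX and 10.55, 9.91, 10.08 and 11.27 in shCTRL +DOX cells. For shEIF2B1 the values were 10.87, 11.70, 10.86 and 11.70 without and 10.02, 10.42, 10.10 and 10.58 with DOX, and for shEIF2B4 9.67, 11.20, 11.19 and 11.30 and 9.67, 10.33, 10.04 and 10.85. The induced shEIF2B1 libraries lay wholly below the uninduced ones, and the shCTRL groups overlapped. The response was -0.77 ± 0.27 (SE), with weekly values of -1.58, -0.21, -0.36 and -0.91.

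HNRNPH3, the shortest H protein, was at 8.17, 8.76, 8.52 and 9.29 in shCTRL -DOX and 8.48, 8.30, 8.29 and 9.28 in shCTRL +DOX cells on the log2 RPF scale. In shEIF2B1 cells it was at 8.85, 9.65, 8.89 and 9.87 without and 7.96, 8.66, 8.32 and 8.77 with DOX, and in shEIF2B4 cells at 7.26, 9.21, 9.24 and 9.63 and 7.93, 8.49, 8.44 and 9.12. The shEIF2B1 groups did not overlap, and the range of the shEIF2B4 -DOX group came mostly from replicate 1. The response to shEIF2B1 was -1.20, -0.53, -0.35 and -1.10 by week and -0.80 ± 0.18 (SE) overall.

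HNRNPF, the family member with the highest GC3, stood apart from the H genes. Its log2 RPFs were 9.81, 10.07, 10.06 and 10.19 in shCTRL -DOX and 10.14, 9.58, 9.68 and 10.08 in shCTRL +DOX cells. They were 10.01, 10.38, 10.03 and 10.39 and 9.91, 9.80, 9.91 and 9.67 without and with DOX in the shEIF2B1 line, and 9.54, 9.95, 10.13 and 9.95 and 9.88, 9.73, 9.71 and 9.91 in the shEIF2B4 line. The shEIF2B1 groups did not overlap, but the response relative to shCTRL was -0.44, -0.08, 0.25 and -0.61 by week, with week 3 above 0, and -0.22 ± 0.18 (SE) from the fit.

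HNRNPC, the core component of nuclear hnRNP particles, had log2 RPFs of 10.76, 11.43, 11.37 and 11.57 in shCTRL -DOX and 11.31, 10.78, 10.86 and 11.50 in shCTRL +DOX cells. The shEIF2B1 line was at 11.24, 11.85, 11.30 and 11.83 without and 10.49, 10.68, 10.59 and 10.97 with DOX, and the shEIF2B4 line at 10.02, 11.48, 11.47 and 11.62 and 10.35, 10.59, 10.62 and 10.91. Every induced shEIF2B1 value was below every uninduced value. The response was -1.30, -0.52, -0.20 and -0.80 by week and -0.70 ± 0.20 (SE) overall.

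HNRNPL, the member with the highest GC3 of the set, was at 10.54, 10.71, 10.96 and 11.03 in shCTRL -DOX and 10.84, 9.92, 10.52 and 10.80 in shCTRL +DOX cells. In the shEIF2B1 line log2 RPFs were 10.71, 11.00, 10.83 and 10.97 without and 10.45, 10.15, 10.48 and 10.10 with DOX, and in the shEIF2B4 line 10.24, 10.66, 10.83 and 10.61 and 10.55, 10.14, 10.24 and 10.41. The shEIF2B1 groups did not overlap, yet the response relative to shCTRL was -0.56, -0.06, 0.09 and -0.64 by week and -0.29 ± 0.21 (SE). In shCTRL cells HNRNPL was also lower with DOX, in 3 of 4 weeks, as 9 of the 10 members were on average. Its mean change there, -0.29, was the lowest of the 10.

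The remaining members lay between these. HNRNPR log2 RPFs ranged from 9.46 to 10.13 in uninduced and 8.58 to 9.26 in induced shEIF2B1 cells, with a response of -0.73 ± 0.17 (SE), below 0 in all 4 weeks. HNRNPM ranged from 9.55 to 10.40 in uninduced and 8.98 to 9.18 in induced cells, with a response of -0.66 ± 0.27 (SE). HNRNPK ranged from 11.44 to 12.34 and 11.06 to 11.21, with a response of -0.53 ± 0.23 (SE). For both, week 3 was just above 0, at 0.02.

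In all, the responses of the 10 members to shEIF2B1 had a median of -0.72 in RPFs, against -0.01 over all 11145 genes. By limma at an adjusted p under 0.1, 7 members were called lower (HNRNPC, HNRNPH1, HNRNPH2, HNRNPH3, HNRNPM, HNRNPR and HNRNPU), and HNRNPF, HNRNPK and HNRNPL were not called. Over all genes, 15.3% were called lower by the same rule. Since the family was selected on this contrast, nothing is read from that difference. The response varied by week: the median over the members was -1.25 in week 1, -0.42 in week 2, -0.17 in week 3 and -0.91 in week 4. In the same weeks the members' median change with DOX in shCTRL cells was 0.51, -0.62, -0.42 and -0.08. Refitting with limma without replicate 1, 2, 3 or 4 gave 5, 8, 6 and 4 members called lower, where 8.28%, 13.2%, 10.9% and 7.59% of all genes were, and without the replicate block none was, where 0.018% of all genes were.

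**Figure D3:**
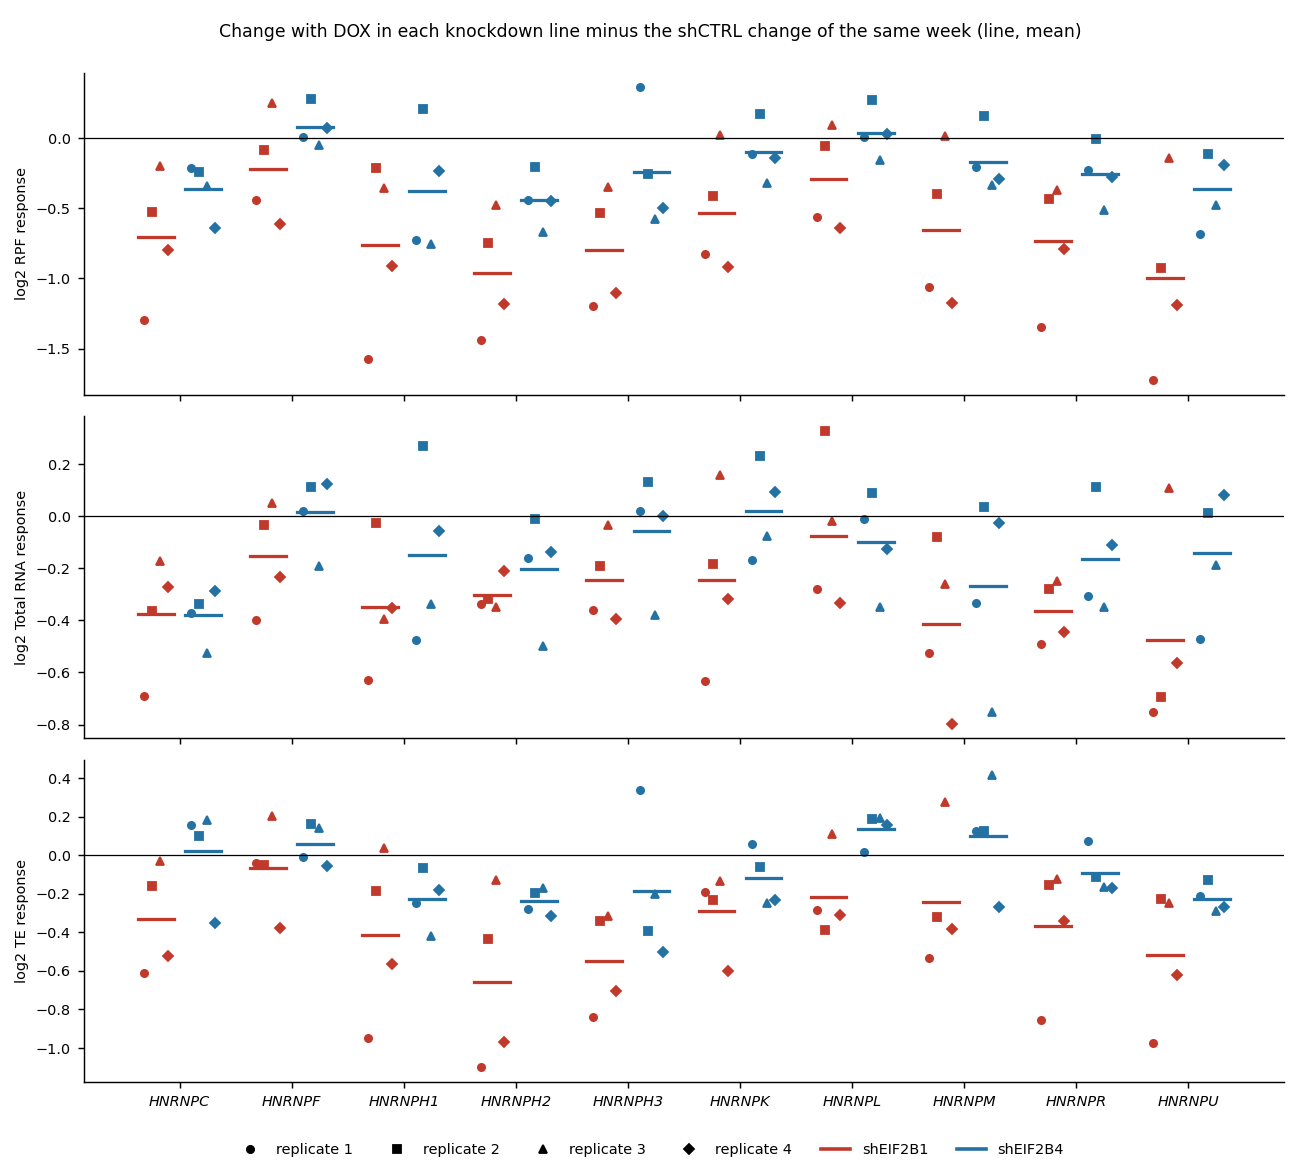
Response of each hnRNP gene to shEIF2B1 (red) and shEIF2B4 (blue) in each of 4 weeks, as the log2 change with DOX minus the shCTRL change of that week, for RPFs (top), total RNA (middle) and log2 TE (bottom), with a bar at the mean. RPF responses to shEIF2B1 are farthest below 0 in weeks 1 and 4, and those to shEIF2B4 lie closer to 0.

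With shEIF2B4 the RPF responses were smaller. They ran from -0.44 for HNRNPH2 to 0.08 for HNRNPF, with a median of -0.25 against -0.02 over all genes, and 8 of 10 were below 0. HNRNPC (-0.22, -0.24, -0.34 and -0.64), HNRNPH2 (-0.44, -0.20, -0.67 and -0.45), HNRNPR (-0.23, -0.00, -0.51 and -0.28) and HNRNPU (-0.68, -0.11, -0.48 and -0.19) were below 0 in all 4 weeks. Of all genes, 17.9% were below 0 in all 4 weeks. By limma none of the 10 was called lower, with 0.87% of all genes called. None had an unadjusted p under 0.05, where 1749 of 11145 genes did in either direction. The target EIF2B4 was itself not called in this contrast (-0.48 ± 0.19, SE), while EIF2B1 was called lower with shEIF2B1 (-0.53 ± 0.13). The lack of calls is thus not read as a lack of response. The members' response to shEIF2B4 depended on the RPF library of replicate 1 of shEIF2B4 -DOX, in which HNRNPU was at 8.34 against 10.18 to 10.30 in the other 3. Without that library, chosen for removal after its values were seen, the median of the members was -0.54 and HNRNPC, HNRNPH2, HNRNPH3 and HNRNPR were called lower, when 10.0% of all genes were. Without replicate 1 as a whole, the median was -0.26 and HNRNPC and HNRNPH3 were called, with 8.17% of all genes.

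Differences between the 2 knockdown lines varied by week, more widely without DOX than with it. With DOX the members' mean RPFs in shEIF2B1 cells differed from those in shEIF2B4 cells by -0.10 to 0.08 on the log2 scale. The median was 0.03, against 0.12 over all genes. In none of the 10 did the groups part, where shEIF2B1 stood above shEIF2B4 without overlap in 5.58% of all genes and below it in 0.26%. Without DOX the difference was 0.29 to 0.71 (median 0.46, against 0.13 over all genes), but its median was 1.07 in week 1, 0.53 in week 2, -0.18 in week 3 and 0.43 in week 4. In week 3 all 10 members were below 0, and week 1 holds the RPF library that stood apart. Over weeks 2 to 4 alone the difference was 0.11 for HNRNPH3 to 0.44 for HNRNPU, with a median of 0.27 against 0.13 over all genes. With DOX the difference over those weeks had a median of -0.02, against 0.12 over all genes. By week, its median with DOX was 0.06, 0.04, 0.08 and -0.23 in weeks 1, 2, 3 and 4. In week 4 it was below 0 for 9 of 10 members, and in week 1 it reached 0.49 for HNRNPU. Uninduced shEIF2B1 cells held the highest mean RPF of the 6 groups for all 10 members, and for 9 without that library, when HNRNPH3 was highest in uninduced shEIF2B4 cells. The difference from uninduced shCTRL cells was 0.07 for HNRNPL to 0.65 for HNRNPU, and 7 members were higher than shCTRL there in all 4 weeks. Of all genes, 28.95% were higher and 26.78% lower than shCTRL there in all 4 weeks. Induced shEIF2B1 cells differed from induced shCTRL cells by -0.05 for HNRNPF to -0.48 for HNRNPH2, with a median of -0.26, against a median of 0.41 for the difference without DOX. These comparisons use the same libraries as the responses and were not tested.

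Total RNA moved in the same direction by a smaller amount. HNRNPU total RNA was 10.39, 10.50, 10.64 and 10.96 in shCTRL -DOX, 10.69, 10.11, 10.32 and 10.82 in shCTRL +DOX, 10.60, 10.96, 10.67 and 11.00 in shEIF2B1 -DOX and 10.15, 9.88, 10.47 and 10.29 in shEIF2B1 +DOX cells on the log2 scale. HNRNPC total RNA was 12.11, 12.35, 12.12 and 12.19 in shEIF2B1 -DOX and 11.67, 11.68, 11.69 and 11.71 in shEIF2B1 +DOX cells, against 11.96, 12.14, 12.05 and 12.22 and 12.21, 11.84, 11.79 and 12.00 in shCTRL cells. All 10 members had every induced shEIF2B1 total RNA value below every uninduced one, where 14.0% of all genes did. In shCTRL cells the groups overlapped for all 10, and 3.26% of all genes were lower with DOX without overlap. The responses to shEIF2B1 ran from -0.48 for HNRNPU to -0.08 for HNRNPL, with a median of -0.33 against 0.00 over all 11947 genes. By limma no member was called lower, and 1.13% of all genes were. At an unadjusted p under 0.05 there were 6 members, and 1825 of 11947 genes in either direction. Without replicate 2, 3 members were called, with 1.97% of all genes.

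In shEIF2B4 cells the total RNA responses ran from -0.38 for HNRNPC to 0.02 for HNRNPK (median -0.15), with none called by limma and 1.62% of all genes called lower. At an unadjusted p under 0.05 there was 1 member, and 2057 of 11947 genes in either direction. HNRNPC total RNA was 11.71, 12.13, 12.30 and 12.14 in uninduced and 11.59, 11.49, 11.51 and 11.64 in induced shEIF2B4 cells, and HNRNPH1 9.92, 10.14, 10.23 and 10.20 and 9.64, 9.67, 9.64 and 9.90. These were the 2 members whose shEIF2B4 groups did not overlap, a share near the 12.0% of all genes that were lower with DOX in that way. HNRNPC was also the single member whose total RNA was below 0 by more than 0.3 in response to both shRNAs, at -0.37 ± 0.13 (SE) for shEIF2B1 and -0.38 ± 0.15 for shEIF2B4.

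Log2 TE responses to shEIF2B1 were below 0 for all 10 members, with a median of -0.35 against -0.02 over 10836 genes. HNRNPH2 log2 TE was -0.33, 0.29, -0.15 and 0.34 in shCTRL -DOX, 0.22, 0.27, -0.13 and 0.67 in shCTRL +DOX, 0.20, 0.99, 0.25 and 1.12 in shEIF2B1 -DOX and -0.35, 0.54, 0.15 and 0.49 in shEIF2B1 +DOX cells. For HNRNPU it was -1.42, -0.55, -0.72 and -0.46 in shCTRL -DOX, -0.97, -0.76, -1.02 and -0.41 in shCTRL +DOX, -0.73, -0.05, -0.60 and 0.09 in shEIF2B1 -DOX and -1.26, -0.49, -1.15 and -0.48 in shEIF2B1 +DOX cells. Uninduced and induced shEIF2B1 groups overlapped in both genes. HNRNPH2 (-0.66 ± 0.17, SE), HNRNPH3 (-0.55 ± 0.15) and HNRNPU (-0.52 ± 0.16) were called lower, with 4.13% of all genes called. The calls were lost without replicate 1 and without replicate 4, 1 was left without replicate 3 (0.203% of all genes), and none was made without the block.

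With shEIF2B4, log2 TE responses ran from -0.24 to 0.14 (median -0.11, against -0.01), and none was called by limma, with 0.0277% of all genes called lower. At an unadjusted p under 0.05 there were 0 members, and 1848 of 10836 genes in either direction. Without the replicate 1 RPF library of shEIF2B4 -DOX the median was -0.26 and 1 member was called, with 12.5% of all genes.

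Members with low GC3 tended to have the lower RPF responses, though not in strict order. The 7 members with GC3 under 50% had RPF responses to shEIF2B1 of -0.99 to -0.53, and HNRNPM, HNRNPF and HNRNPL, above 50%, had -0.66, -0.22 and -0.29. Over the 10 members Pearson's r between GC3 and the response was 0.75 (Spearman's rho 0.68) for shEIF2B1 and 0.66 (rho 0.41) for shEIF2B4. Over the 10847 genes with a coding sequence it was 0.61 and 0.52. Without the RPF library of replicate 1 of shEIF2B4 -DOX, r for shEIF2B4 was 0.76 over the members and 0.61 over all genes. For log2 TE, r was 0.74 and 0.86 over the members, against 0.62 and 0.71 over 10547 genes, and without that library the values for shEIF2B4 were 0.92 and 0.77. All points share the same libraries, and the F and H genes share sequence, so these are descriptions. The part of base composition in the responses was not tested. The purine content of the coding sequence also followed the RPF responses, at r = -0.635 for shEIF2B1 and -0.56 for shEIF2B4. Over all genes with a coding sequence these were -0.45 and -0.27. For total RNA with shEIF2B1, r over the members was -0.67 for purine content and 0.50 for GC3, against -0.15 and 0.20 over all genes with a coding sequence. With shEIF2B4 the total RNA values were -0.38 and -0.05 over the members, against 0.03 and -0.24. Coding length showed no such relation in RPFs, at r = -0.01 for shEIF2B1 and 0.16 for shEIF2B4.

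**Figure D4:**
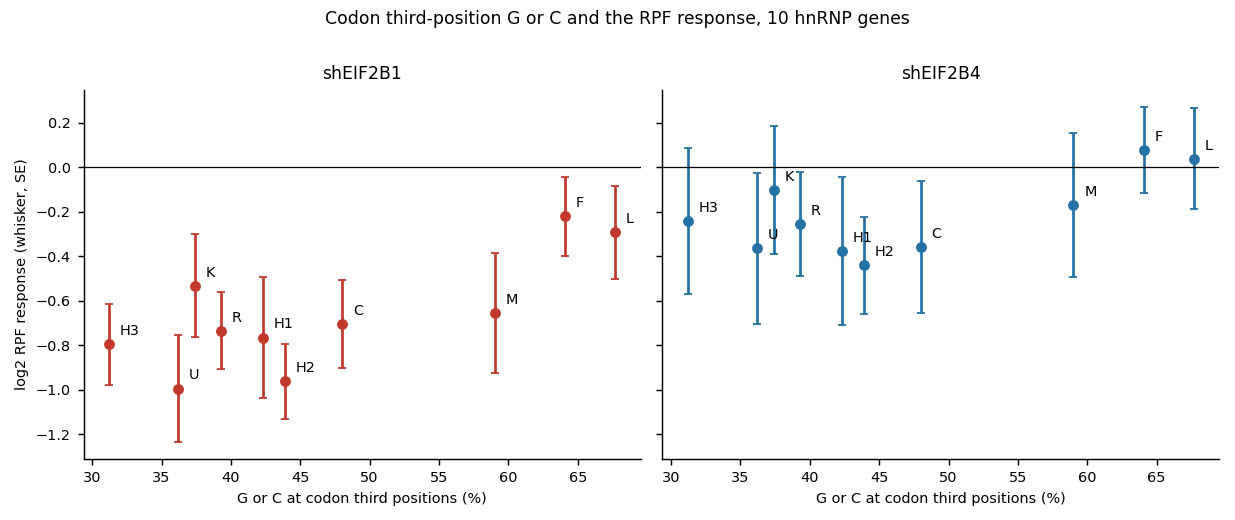
GC3 of each hnRNP gene (x axis, percent of codons with G or C at the third position) against its log2 RPF response (y axis, with SE) to shEIF2B1 (left) and shEIF2B4 (right); letters name the protein. HNRNPF and HNRNPL, at 64.1% and 67.7%, lie nearest to 0 in the left panel.

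The change with DOX was also averaged over the 3 lines. It is not a measure of the drug alone, since 2 of the 3 lines were knocked down by it, and it contains the changes on which the set was selected. All 10 members were called lower in RPFs, where 27.9% of all genes were called lower. HNRNPH1 changed by -0.62 ± 0.13 (SE), HNRNPU by -0.59 ± 0.13, HNRNPM by -0.55 ± 0.12 and HNRNPC by -0.52 ± 0.11. The smallest changes were -0.21 ± 0.08 in HNRNPF and -0.25 ± 0.08 in HNRNPH2. HNRNPF lost its call without replicate 2, 3 or 4 (-0.13, -0.17 and -0.18), HNRNPH2 without replicate 2 (-0.17), and HNRNPH2 and HNRNPH3 without the block. Over the 3 lines separately, the members' median change was -0.16 in shCTRL, -0.83 in shEIF2B1 and -0.33 in shEIF2B4 cells, where it was -0.61 over weeks 2 to 4.

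**Figure D5:**
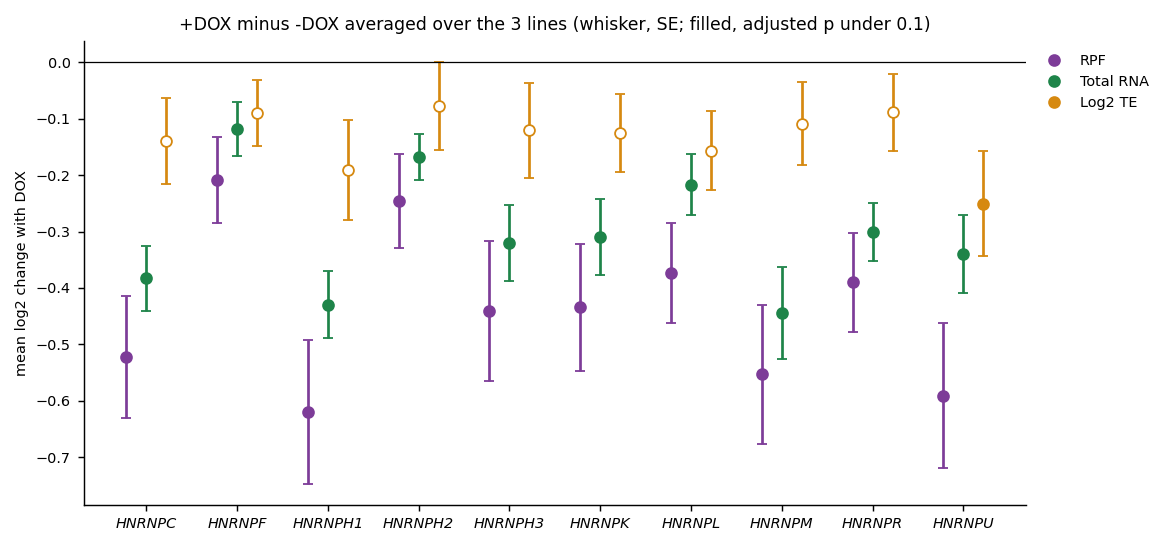
Change with DOX averaged over the 3 lines for each hnRNP gene, on the log2 scale with SE, in RPFs, total RNA and log2 TE; filled points were called by limma. RPF and total RNA are filled for all 10 genes, and log2 TE for HNRNPU alone.

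Total RNA of all 10 members was also called lower with DOX on this average, with 27.9% of all genes called lower. HNRNPH1 changed by -0.43 ± 0.06 (SE), HNRNPM by -0.45 ± 0.08 and HNRNPC by -0.38 ± 0.06. HNRNPF changed least, by -0.12 ± 0.05, and lost its call without replicate 2 or 4. Log2 TE was called lower in HNRNPU alone, at -0.25 ± 0.09, where 7.14% of all genes were called lower. That call was lost without replicate 2, 3 or 4 (-0.22, -0.17 and -0.25), while 8 members were called without replicate 1 (9.55% of all genes) and 6 without its shEIF2B4 -DOX RPF library (12.0% of all genes). For the other 9 members the log2 TE change was -0.19 to -0.08.

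The lines also differed when both treatments were averaged. Total RNA of HNRNPH2 was lower in the shEIF2B1 line than in the shCTRL line, with a difference of -0.28 ± 0.05 (SE, limma adjusted p = 0.00115), and in the shEIF2B4 line, with -0.27 ± 0.05 (adjusted p = 0.000626). Its log2 values were 7.74, 7.86, 7.89 and 7.99 in shCTRL -DOX, 7.81, 7.72, 7.98 and 7.97 in shCTRL +DOX, 7.74, 7.75, 7.70 and 7.78 in shEIF2B1 -DOX and 7.47, 7.29, 7.44 and 7.55 in shEIF2B1 +DOX cells. In the shEIF2B4 line they were 7.51, 7.69, 7.82 and 7.79 without and 7.42, 7.54, 7.41 and 7.63 with DOX, so that without DOX the lines' ranges overlapped. HNRNPH2 was called in total RNA of the shEIF2B1 line alone among the members, with 8.23% of all genes called in either direction, and it remained called without each replicate in turn. The read-through RPL36A-HNRNPH2, which shares 11.23% of the coding windows of HNRNPH2, was listed at 12.60 in total RNA, and its part in these differences was not tested.

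In the shEIF2B4 line, where 22.5% of all genes were called in total RNA, HNRNPC was lower as well, at -0.21 ± 0.07 (SE, limma adjusted p = 0.0426). The call was lost without replicate 1 (adjusted p = 0.184) or 4 (0.189) and with each library centred on its median (0.106). HNRNPC RPFs were lower, at -0.31 ± 0.13 (adjusted p = 0.0711), the 1 member called of 10 where 41.7% of all genes were. This call was lost without replicate 1 (adjusted p = 0.197) or 4 (0.203), and without the shEIF2B4 -DOX RPF library of replicate 1 (-0.16, adjusted p = 0.173). Over all genes the shEIF2B4 line lay lower, with medians of -0.12 in RPFs, -0.04 in total RNA and -0.09 in log2 TE, and with libraries centred HNRNPC differed by -0.21 in RPFs (adjusted p = 0.265). By limma no member was called in RPFs of the shEIF2B1 line, with 27.9% of all genes called. At an unadjusted p under 0.05 there were 0 members and 3909 of 11145 genes. Without replicate 1, 1 member was called, where 1660 genes were lower and 2197 higher. Without its shEIF2B4 -DOX RPF library 1 member was also called, with 1742 genes lower and 2207 higher.

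On the average of both treatments, log2 TE was higher in the shEIF2B1 line for the H genes, where 11.7% of all genes were called. HNRNPH3 differed by 0.34 ± 0.10 (SE, limma adjusted p = 0.0638), HNRNPH1 by 0.30 ± 0.11 (adjusted p = 0.0975) and HNRNPH2 by 0.28 ± 0.10 (adjusted p = 0.0824). The difference lay mostly in uninduced cells. Without DOX, means in shEIF2B1 against shCTRL cells were 0.38 against -0.23 (HNRNPH3), 1.01 against 0.51 (HNRNPH1) and 0.64 against 0.04 (HNRNPH2). With DOX they were -0.05 against -0.11, 0.62 against 0.53 and 0.21 against 0.26, so HNRNPH2 was then the lower in shEIF2B1 cells. All 3 calls were lost without replicate 2 (adjusted p = 0.494, 0.557 and 0.542) and without replicate 4 (0.258, 0.258 and 0.304), and HNRNPH1 also without replicate 3 (0.121). With libraries centred, HNRNPH1 and HNRNPH2 were no longer called (0.124 and 0.107). HNRNPL log2 TE was lower in the shEIF2B4 line, at -0.22 ± 0.09 (adjusted p = 0.0749), where 24.9% of all genes were called, and this was lost with libraries centred (-0.15, adjusted p = 0.299) and without replicate 3 (0.261) or 4 (0.321).

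Weeks differed more in RPFs than in total RNA. Averaged over the 6 groups, the span between the highest and the lowest week was 0.15 to 1.31 in log2 RPF (median 0.75, or 0.63 without the shEIF2B4 -DOX library of replicate 1) and 0.03 to 0.34 in log2 total RNA (median 0.17). In RPFs, 8 of 10 members were lower in weeks 1 and 3 than in weeks 2 and 4. Replicate 3 combined 2 sequencing runs of the same libraries.

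After centring within weeks, the members followed each other closely over the 24 libraries. Pearson's r between pairs of members had a median of 0.91 in RPFs, from 0.74 for HNRNPH2 and HNRNPL to 0.97 for HNRNPK and HNRNPM, and was 0.92 without the shEIF2B4 -DOX library of replicate 1. In total RNA the median was 0.84, from 0.41 for HNRNPF and HNRNPH2 to 0.96 for HNRNPH1 and HNRNPR. The genes outside the set most like the members' mean RPF profile were the chaperonin subunit CCT4 (r = 0.99), the HSP90 genes HSP90AB1 (0.99) and HSP90AA1 (0.98), TARDBP (0.98), which encodes the RNA-binding protein TDP-43, and the splicing factor subunit SF3A3 (0.98). For total RNA they were ILF2 (r = 0.98), HSP90AA1 (0.97), XRCC6 (0.97), NSUN2 (0.97) and POLA2 (0.97). The 24 libraries share weeks and lines, so these correlations carry no p.

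The closest relatives of the members gave a mixed picture in the response to shEIF2B1. Of all genes, 15.3% were called lower in RPFs and 1335 of 11145 higher. Of 14 relatives measured in RPFs, 7 were called lower and none higher, with a median of -0.27. They were SYNCRIP (-0.89 ± 0.22, SE), the paralogue of HNRNPR, HNRNPUL2 (-0.77 ± 0.16), GRSF1 (-0.61 ± 0.14), HNRNPLL (-0.41 ± 0.16), MYEF2 (-0.41 ± 0.17), PTBP3 (-0.30 ± 0.11) and HNRNPCL1 (-1.03 ± 0.23), which shares sequence with HNRNPC. RALY, the relative of HNRNPC, was at -0.10 ± 0.13, and the poly(C)-binding proteins PCBP1, PCBP2 and PCBP4, relatives of HNRNPK, at 0.08 ± 0.16, -0.10 ± 0.14 and 0.21 ± 0.15. HNRNPUL1 was at -0.17 ± 0.11, and PTBP1 and PTBP2 at -0.19 ± 0.21 and -0.23 ± 0.17. None of the 14 was called in RPFs in response to shEIF2B4, where 0.87% of all genes were called lower and 210 of 11145 higher. In total RNA PTBP3 was called higher (0.40 ± 0.11, SE), with 452 of 11947 genes called higher.

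On the DOX average, 9 of these 14 relatives were called lower in RPFs and none higher, with a median of -0.23, where 27.9% of all genes were called lower. SYNCRIP changed by -0.52 ± 0.13 (SE), PTBP1 by -0.43 ± 0.09 and HNRNPUL2 by -0.37 ± 0.08. In total RNA 6 of 13 were called lower and 2 higher (PCBP2 and PCBP4). There 27.9% of all genes were called lower and 3308 of 11947 higher. In log2 TE PCBP2 was called lower (-0.49 ± 0.10), with 7.14% of all genes called lower.

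Of 9 other hnRNP genes (the A, B and D groups and RBMX), 6 were called lower and HNRNPA0 higher in RPFs in response to shEIF2B1, with a median of -0.71. Of 12 SR splicing factors measured in RPFs, 4 were called lower and SRSF8 higher, with a median of -0.24. For this response 15.3% of all genes were called lower and 1335 of 11145 higher. On the DOX average 8 of the 9 hnRNP genes (median -0.54) and 9 of the 12 SR genes (median -0.31) were called lower in RPFs, and none higher. The share of all genes called lower on that average was 27.9%, and 2735 of 11145 were called higher. No gene of either list was called in RPFs in response to shEIF2B4, with 0.87% of all genes called lower and 210 of 11145 higher. The differences between the lists were not tested.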

How the data were processed

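Monosome and disome fractions (RPFs) and total cytoplasmic RNA were sequenced from 24 lysates. Per the study's methods, reads were deduplicated, total RNA was aligned with Bowtie2 to a filtered protein-coding transcriptome (GENCODE 38) and quantified with RSEM, and RPFs, cleared of rRNA, tRNA and mitochondrial RNA, were aligned to the most abundant transcript per gene. The submitters' processing notes also name cutadapt 1.18, SAMtools 1.9, R 4.3.1 and DESeq2. Replicate 3 joined 2 runs of the same libraries.

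The values the authors deposited are regularized log2 counts (DESeq2), made separately for RPFs (11145 genes) and total RNA (11947 genes). This transformation shrinks differences of genes with few reads. No counts were used here, so the depth is unknown and no counting interval is given. Library medians were 6.84 to 7.12 for RPFs and 7.85 to 7.92 for total RNA.

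Log2 TE was computed per lysate as log2 RPF minus log2 total RNA (10836 genes). Models were fitted across all genes with limma 3.58.1 (R 4.3.3, empirical Bayes with trend), with the replicate number as a block. The study's methods place its repeats in separate weeks. The labels give a replicate number only, and that libraries of the same number share a week is an inference. Deviations from group means of same-numbered libraries had a mean correlation of 0.559 in RPFs, 0.183 in total RNA and 0.538 in log2 TE. The response to a knockdown is the interaction of shRNA and DOX over 16 libraries, and the averaged contrasts used all 24. Calls were made at a two-sided Benjamini-Hochberg adjusted p under 0.1 over all genes. The p-values rest on the spread among replicates of single lines that is left after the block removes differences shared within a week. The procedure was tested on simulated data. Alternatives left out the block, the shCTRL correction, each replicate or the lowest 25% of genes, centred libraries on their medians, or used all libraries in one fit.

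The members, the 3 other gene lists and the genes named were chosen with earlier results of these data known. Named genes were the 10 members, both targets, the relatives, and the 5 genes most like the members' mean profile per measure. HNRNPA0, SRSF8 and the marker DES were named after their values were seen. Coding sequences and coordinates came from GENCODE 29 (GRCh38), in which 4 of the members' transcripts (HNRNPH2, HNRNPH3, HNRNPL and HNRNPM) carry an earlier version number than the deposited one. Python 3.11.15 with numpy 2.4.6 and pandas 2.3.3 was used for summaries, and matplotlib 3.10.9 for figures.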

Additional observations from a re-analysis of the deposited data

Results flagged for a closer look

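Of 120 groups of 4 libraries (10 genes, 6 groups and log2 RPF or total RNA), 8 held a library whose gap to the others exceeded Dixon's critical value at the 95% level, which chance alone does in about 1 in 20 groups. Of these, 7 were the RPF library of replicate 1 of shEIF2B4 -DOX. In it HNRNPC was at 10.02 against 11.47 to 11.62 in the other 3 libraries, HNRNPH1 at 9.67 against 11.19 to 11.30, and HNRNPH2 at 7.07 against 8.18 to 8.34. HNRNPK was at 10.40 against 11.72 to 11.74, HNRNPM at 8.62 against 9.74 to 9.82, HNRNPR at 8.37 against 9.54 to 9.69, and HNRNPU at 8.34 against 10.18 to 10.30. The total RNA of the same lysate was also the lowest of its group for all 10 genes. The other was total RNA of HNRNPH1 in replicate 4 of shEIF2B4 +DOX, at 9.90 against 9.64 to 9.67.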

How the results depend on the processing

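No call reversed its direction under the alternatives run. This does not extend to uncalled responses near 0, such as the RPF responses of HNRNPF and HNRNPL to shEIF2B4. Without the replicate block, 0 members were called for RPF and log2 TE responses to shEIF2B1, the log2 TE change with DOX, log2 TE of either line, and RPFs of the shEIF2B4 line. Of all genes, 2 of 11145 and 0 of 10836 were then called lower for those responses, and 118 of 10836 for the log2 TE change with DOX. For log2 TE of the shEIF2B1 line 0 were called, and for that of the shEIF2B4 line 68 lower and 4 higher. For RPFs of the shEIF2B4 line, 1405 were lower and 110 higher. Without the shCTRL correction, 4 (RPF, 12.0% of all genes) and 7 (total RNA, 16.3%) members were called lower with shEIF2B4, and 10 (total RNA, 16.8%) and 8 (log2 TE, 9.07%) with shEIF2B1. With all libraries in one fit, 0 were called for log2 TE with shEIF2B1, where 16 of 10836 genes were called lower. Centred on library medians, 0 were called for RPFs, 1 for total RNA and 0 for log2 TE of the shEIF2B4 line, and 1 for log2 TE of the shEIF2B1 line, which was also 1 with the lowest 25% of genes left out. Of all genes, the shEIF2B4 line then had 1535 lower and 1259 higher in RPFs, 1080 and 1138 in total RNA, and 520 and 537 in log2 TE. Log2 TE of the shEIF2B1 line had 709 and 636 when centred, and 287 and 323 with the lowest genes left out. Leaving out each replicate in turn gave 4 to 8 members for the RPF response to shEIF2B1, 0 to 2 for that to shEIF2B4, 0 to 3 for total RNA and log2 TE responses to shEIF2B1, and 0 to 8 for the log2 TE change with DOX. Of all genes, 846 to 1472 and 2 to 910 were then called lower for the RPF responses to shEIF2B1 and shEIF2B4. For total RNA and log2 TE responses to shEIF2B1, 14 to 235 and 0 to 757 were, and 227 to 1035 for the log2 TE change with DOX. The medians with shEIF2B4 were -0.31 to -0.15 in RPFs and -0.16 to -0.074 in log2 TE. For the shEIF2B1 line, leaving out each replicate gave 0 to 1 in RPFs and 0 to 3 in log2 TE, and for the shEIF2B4 line 0 to 3 in RPFs, 1 to 4 in total RNA and 0 to 3 in log2 TE. Of all genes, 184 to 1660 were then lower and 274 to 2197 higher in RPFs of the shEIF2B1 line. In its log2 TE 0 to 797 and 0 to 1427 were. In the shEIF2B4 line these counts were 2543 to 4599 and 207 to 1150 in RPFs. They were 1013 to 1537 and 443 to 662 in total RNA, and 378 to 3083 and 19 to 899 in log2 TE. Without the RPF library of replicate 1 of shEIF2B4 -DOX, an alternative chosen after seeing the data, the response to shEIF2B4 had a median of -0.54 with 4 called in RPFs and -0.26 with 1 called in log2 TE. It also gave 6 called for the log2 TE change with DOX, 1 for RPFs of the shEIF2B1 line and 2 for log2 TE of the shEIF2B4 line. Of all genes, 1116 of 11145 and 1358 of 10836 were then called lower for the 2 responses. For the log2 TE change with DOX, 1303 of 10836 were. RPFs of the shEIF2B1 line had 1742 genes called lower and 2207 higher, and log2 TE of the shEIF2B4 line 3205 and 682. Of single-gene values, 445 of the responses moved by less than the weekly spread and 15 by more, and of the averaged contrasts 181 kept their side of the threshold and 38 lost it. The causes were not tested. Depth is unknown, so what it limits cannot be stated.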
